A study of Mus musculus with 18 samples.

Results

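The question here was whether loss of hepatic cytochrome P450 reductase changes liver gene expression differently in mice fed fish/fungal oil and in mice fed lard. For each gene it was read as the interaction, which is the knockout effect on fish/fungal oil (knockout minus control) minus the knockout effect on lard. The 12 arrays of this contrast are those whose titles name the lard or the fish/fungal diet, of 18 in the series, and the 6 canola arrays were read beside them. All mice were males homozygous for floxed reductase alleles (POR-lox+/+). Knockouts were Alb-Cre+/-/POR-lox+/+ and controls Alb-Cre-/-/POR-lox+/+. The albumin promoter drives Cre in hepatocytes, so macrophages, endothelial and stellate cells of the same livers are not its target. From 4 weeks of age the mice ate purified diets that differed in their fat. Lard supplied it in the first diet, and 3.27% ARASCO oil with 2.73% menhaden oil supplied it in the fish/fungal diet. The series text gives 6% fat and the sample labels give 7%. Livers were taken at 12 weeks of age, after 8 weeks on the diet and a 4 h fast. Each array held RNA pooled from 3 mice, and each of the 4 groups had 3 arrays, so 36 mice stand behind the contrast. The strain was not given in the sources used here. Por itself is not analysed here, and no array's genotype label could be set against it.

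P450 reductase passes electrons from NADPH to the microsomal P450 enzymes, which oxidize drugs, steroids, bile acids and fatty acids. Without it the hepatic P450s lose their electron supply, and liver-specific knockouts are known for fatty liver and for raised P450 transcripts that depend on the nuclear receptors CAR and PXR. Long-chain polyunsaturated fatty acids, which fish and fungal oils carry, are known to lower the transcripts of fat synthesis through SREBP1, and several of them are themselves substrates of P450s.

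All values are RMA expression values on the log2 scale, where a difference of 1 is 2-fold. Array medians lay between 5.23 and 5.29, arrays of 1 group correlated at 0.988 to 0.996 over the genes tested, and 12578 of the 18193 genes with a name passed the filter on dim probe sets. The mean of 13 hepatocyte markers per array ran from 13.66 to 13.72 in lard-fed controls and from 13.56 to 13.63 in lard-fed knockouts. It ran from 13.6 to 13.62 in fish/fungal-fed controls and from 13.47 to 13.59 in fish/fungal-fed knockouts. Knockouts thus lay slightly below controls on both diets. The number of arrays limits the precision.

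No gene passed the test of the interaction. limma called 0 of 12578 genes (0%) at a Benjamini-Hochberg adjusted p of 0.05, 0 higher and 0 lower, and the smallest adjusted p was 0.743, shared by Ccn1, which encodes a matricellular protein, and Gpc1, which encodes a heparan sulfate proteoglycan. At an unadjusted p under 0.05 there were 305 genes (2.42%), of which 113 (0.898%) were higher and 192 (1.53%) lower. An unadjusted threshold of 0.05 gives about 5% where no gene differs. Within the diets, the knockout effect passed for 124 genes on lard (0.986%), 113 higher (0.898%) and 11 lower (0.0875%). It passed for 37 on fish/fungal oil (0.294%), 32 higher (0.254%) and 5 lower (0.0398%). These counts come from separate tests. The interaction compares the 2 knockout effects within each gene and does not test the difference between the counts.

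The intervals show what sizes of interaction the arrays could show. The median standard error of the interaction was 0.17, and the median size of the interaction was 0.09. The 95% interval lay within 1 log2 unit of 0 on both sides for 12163 genes (96.7%) and within 0.5 for 7577 (60.2%). A gene with the median standard error would have needed an interaction of 1.1 to pass as the only gene. Estimates larger than 1 in size were seen for 20 genes, 1 higher and 19 lower on fish/fungal oil. Among the 19 were Fos, Jun, Egr1, Nr4a1 and Atf3, whose estimates were smaller than 1 in size without replicate 2 of the fish/fungal-fed controls.

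**Figure D1:**
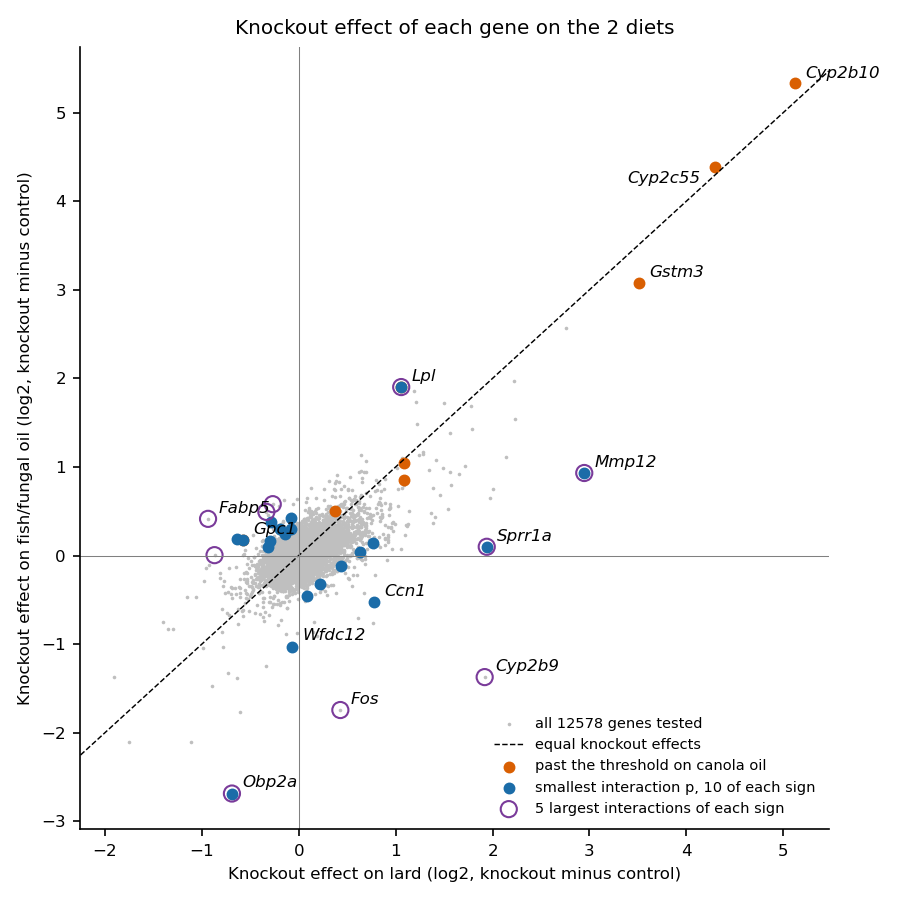
Knockout effect (log2, knockout minus control) on lard on the horizontal axis and on fish/fungal oil on the vertical axis, 1 point for each of the 12578 genes tested; the dashed line marks equal effects. Cyp2b10, Cyp2c55 and Gstm3 lie at the upper end of the line, and Mmp12, Sprr1a, Cyp2b9, Fos and Obp2a lie farthest below it.

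Of 8 genes chosen on canola oil, 7 had a knockout effect above 0 on both lard and fish/fungal oil, and Gpc1 was below 0 on lard and above 0 on fish/fungal oil. To choose knockout-responsive genes by an effect measured outside the 12 arrays, the 8 genes that passed on canola oil were taken (0.0636% of those tested). Of these 7 were higher (0.0557%) and 1 lower (0.00795%). The 12 arrays still shared in the standard error, the choice of probe set and the filter. Cyp2b10, the P450 classically induced through CAR, read 5.08, 5.76 and 5.87 in the lard-fed controls and 10.38, 10.68 and 11.01 in the lard-fed knockouts. Fish/fungal-fed arrays read 6.07, 5.66 and 5.97 in controls and 11.52, 10.82 and 11.38 in knockouts. Every knockout array lay above every control array on both diets. The knockout effects were 5.12 ± 0.49 (SE, adjusted p = 4.5e-05) on lard and 5.34 ± 0.49 (adjusted p = 1.6e-05) on fish/fungal oil, and the interaction was 0.22 with a 95% interval from -1.24 to 1.68. That interval leaves room for a difference of more than 2-fold in either direction.

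Cyp2c55, a fatty acid hydroxylase of the same regulon, rose by 4.30 ± 0.34 (adjusted p = 4.6e-06) on lard and 4.39 ± 0.34 (adjusted p = 3e-06) on fish/fungal oil, and its interaction was 0.09 (95% interval -0.92 to 1.10). Gstm3, a glutathione transferase gene, rose by 3.51 ± 0.35 (adjusted p = 5.1e-05) and 3.07 ± 0.35 (adjusted p = 0.00024), with an interaction of -0.44 (95% interval -1.48 to 0.60). The carboxylesterase gene Ces2a rose by 1.08 ± 0.15 and 1.04 ± 0.15 (adjusted p = 0.0017 and 0.0033), and its interaction of -0.04 had the interval -0.49 to 0.40. Rragd, which encodes a GTPase of the mTORC1 pathway, rose by 1.09 ± 0.16 and 0.85 ± 0.16 (adjusted p = 0.0026 and 0.021), with an interaction of -0.24 (95% interval -0.70 to 0.23). For Golm2 the effects were 0.38 and 0.50, neither past the threshold (adjusted p = 0.27 and 0.20), and the interaction was 0.12 (95% interval -0.28 to 0.53). The intervals of these 6 genes all hold 0. Lpl and Gpc1 were the other 2 of the 8, and their intervals did not hold 0.

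The array labelled knockout canola replicate 3 stood apart from the other knockout canola arrays. Cyp2b10 read 11.08, 10.57 and 8.14 in the 3 knockout canola arrays against 5.44 to 6.02 in the canola controls. Nebl, an actin-binding protein gene, read 6.12, 5.94 and 4.45. Without that array 28 genes passed on canola oil in place of 8, while the interaction between fish/fungal oil and lard again called 0 genes.

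Genes chosen by an effect on 1 diet were read on the other diets. Arrays of the other diets had no part in the effect that chose the genes. They did share in its standard error, in the choice of probe set and in the filter. The 113 genes higher in knockouts on lard had a median knockout effect of 0.78 there, which chose them, 0.43 on fish/fungal oil and 0.42 on canola oil (0.50 without knockout canola replicate 3). On fish/fungal oil 110 of the 113 were above 0 and 17 passed. The 32 genes higher on fish/fungal oil had a median of 0.75 there, 0.64 on lard and 0.50 on canola oil (0.58 without that array), and 32 of the 32 were above 0 on lard. In each case the median on the diet that chose the genes was the larger. For the diet, 78 genes were lower on fish/fungal oil than on lard in controls (0.620% of those tested), with a median of -1.02 there and -0.81 in knockouts, where 34 passed and 77 were below 0. The 53 genes lower in knockouts (0.421%) had a median of -0.95 there and -1.01 in controls.

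The 10 genes of each sign with the smallest interaction p are described next, with the 5 largest estimates of each sign, as values that did not pass. Among the 10 with a knockout effect lower on fish/fungal oil, the lard-fed knockouts were the group that stood apart in 5, meaning that their mean lay farther from the nearest other group than the other 3 groups spanned. The fish/fungal-fed controls stood apart in 3 and no single group in 2. In 5 of these 10 genes at least 1 group mean lay below the array medians. The filter asked for 3 arrays above their median, so a gene could enter the test through 1 group alone, which bears on this tally. Of these 10 genes 6 passed the knockout test on lard and 2 on fish/fungal oil. Among the 10 with a higher effect on fish/fungal oil, the control lard arrays stood apart in 2 and the knockout fish/fungal arrays in 2, both upward. The control fish/fungal arrays stood apart downward in 1, and no single group did in 5.

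**Figure D2:**
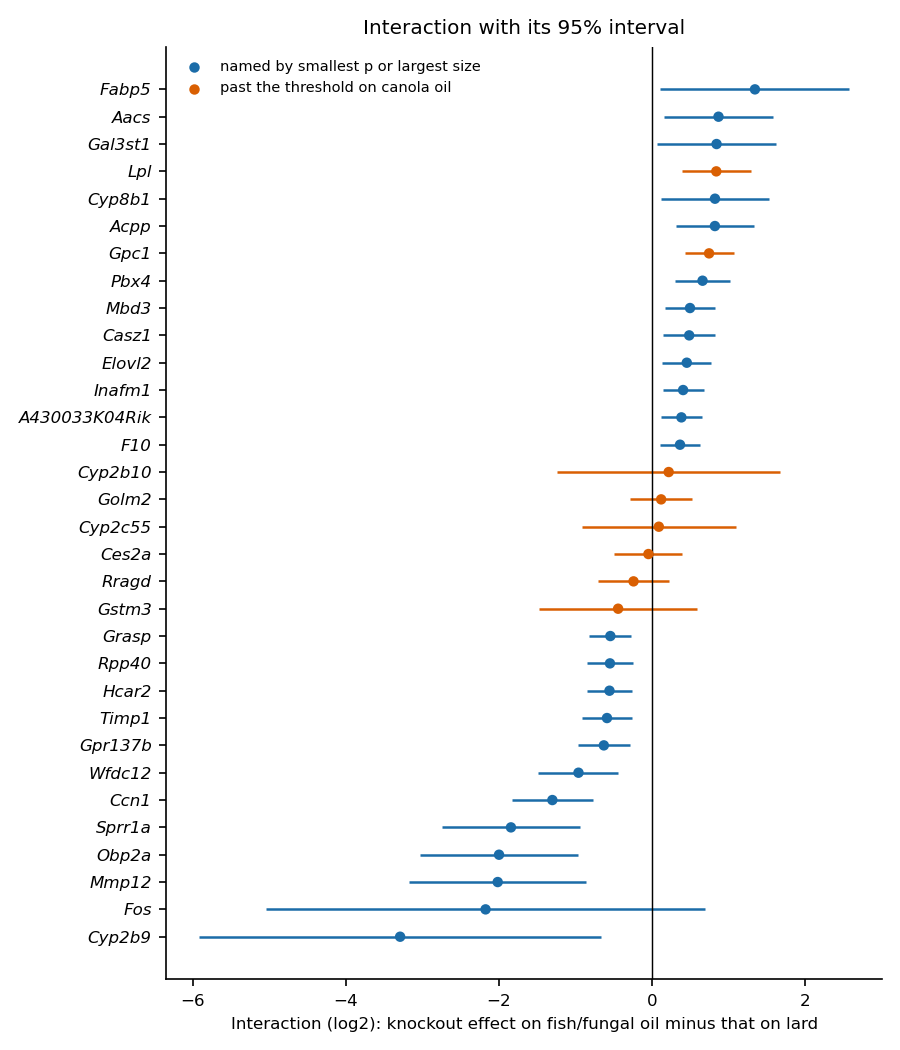
Interaction (log2, knockout effect on fish/fungal oil minus that on lard) with its 95% interval for the genes named by smallest p or largest size and, in orange, for the 8 genes past the threshold on canola oil. Fos is the only blue gene whose interval crosses 0, and of the orange genes the intervals of Lpl and Gpc1 do not cross it.

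Mmp12, the macrophage metalloelastase, was 1 of the genes in which the lard-fed knockouts stood apart. It read 3.83, 3.82 and 3.74 in the lard-fed controls, 6.55, 7.10 and 6.58 in the lard-fed knockouts, 4.14, 3.92 and 4.00 in the fish/fungal-fed controls and 4.60, 6.15 and 4.10 in the fish/fungal-fed knockouts. The lard-fed knockouts lay above every other array, and 1 fish/fungal-fed knockout pool lay close to them while another overlapped the controls. The knockout effect was 2.95 ± 0.39 on lard (adjusted p = 0.0013) and 0.93 ± 0.39 on fish/fungal oil (adjusted p = 0.58), and the interaction was -2.01 ± 0.55 (95% interval -3.17 to -0.85, adjusted p = 1.00). On canola oil the knockout effect was 0.96. Of the 4 group means, 3 lay below the array medians, as they also did for Sprr1a, Timp1 and Hcar2. In each of these genes the mean above the array medians was that of the lard-fed knockouts.

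Sprr1a, which encodes a small proline-rich protein of stressed epithelia, read 4.31, 4.68 and 4.73 in lard-fed controls and 5.83, 6.18 and 7.53 in lard-fed knockouts. The fish/fungal-fed controls read 5.06, 4.70 and 5.02 and knockouts 5.01, 5.06 and 5.00. The lard-fed knockouts alone stood above the rest. The interaction was -1.84 ± 0.43 (95% interval -2.74 to -0.94, adjusted p = 1.00), from effects of 1.94 (adjusted p = 0.0052) and 0.10 (adjusted p = 0.98).

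Abcb1a, which encodes the drug efflux pump P-glycoprotein, read 5.67, 5.33 and 5.23 in lard-fed controls and 7.22, 7.30 and 7.64 in lard-fed knockouts. It read 6.05, 5.72 and 5.69 in fish/fungal-fed controls and 6.28, 6.72 and 6.41 in fish/fungal-fed knockouts. Knockouts lay above controls on both diets, by 1.98 (adjusted p = 0.0013) on lard and by 0.65 (adjusted p = 0.57) on fish/fungal oil. The interaction was -1.33, at an unadjusted p of 0.00246.

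Timp1, the tissue inhibitor of matrix metalloproteinases, read 5.54, 5.40 and 5.56 in lard-fed knockouts against 4.83 to 4.90 in lard-fed controls. It read 5.18, 5.29 and 4.85 in fish/fungal-fed knockouts against 4.97 to 5.18 in their controls. Its knockout effects were 0.63 (adjusted p = 0.012) and 0.04 (adjusted p = 0.97), with an interaction of -0.59. Gpr137b, a lysosomal membrane protein gene, had effects of 0.76 (adjusted p = 0.0042) and 0.14 (adjusted p = 0.86) and an interaction of -0.63. Its 3 other probe sets gave interactions from -0.40 to -0.06. Hcar2, the nicotinic acid and ketone body receptor, had effects of 0.44 (adjusted p = 0.044) and -0.12 (adjusted p = 0.86) and an interaction of -0.55. Mmp12, Sprr1a, Timp1, Gpr137b and Hcar2 were grouped here because the lard-fed knockouts stood apart, so their shared highest mean follows from that choice. In Abcb1a the lard-fed knockouts also had the highest mean, but no single group stood apart. Mmp12 and Timp1 are products of macrophages and stellate cells, and which cells made the RNA was not tested.

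In Obp2a, Wfdc12 and Rpp40 the fish/fungal-fed controls stood apart. Obp2a, an odorant-binding lipocalin gene, read 8.52, 8.92 and 7.90 in the fish/fungal-fed controls. It read 5.63, 5.70 and 5.16 in lard-fed controls, 4.78, 4.72 and 4.92 in lard-fed knockouts and 5.72, 5.71 and 5.85 in fish/fungal-fed knockouts. No fish/fungal-fed control overlapped any other array, and the canola arrays lay between 4.50 and 6.27. The oil effect in controls was 2.95 ± 0.34 (adjusted p = 0.00018) against 0.95 ± 0.34 (adjusted p = 0.39) in knockouts, and the knockout effect was -2.69 (adjusted p = 0.0010) on fish/fungal oil against -0.69 (adjusted p = 0.51) on lard. The interaction was -1.997 ± 0.49 (95% interval -3.03 to -0.97, adjusted p = 1.00). The mean of the lard-fed knockouts lay below the array medians.

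Wfdc12, which encodes a whey acidic protein-type protease inhibitor, read 7.21, 6.33 and 7.28 in fish/fungal-fed controls. The other 9 arrays of the contrast lay between 5.81 and 6.16. Replicate 2 of the fish/fungal-fed controls was the nearest to the rest. The interaction was -0.96 ± 0.25 (adjusted p = 1.00), and without that replicate it was -1.26 with an adjusted p of 0.00281, below the threshold. Rpp40, a subunit gene of ribonuclease P, read 8.10, 7.89 and 7.70 in fish/fungal-fed controls, 7.25 to 7.40 in lard-fed controls, 7.36 to 7.43 in lard-fed knockouts and 7.35 to 7.50 in fish/fungal-fed knockouts. Its interaction was -0.55, and its other probe set gave -0.70. The oil effect in controls passed for both Wfdc12 (0.93, adjusted p = 0.014) and Rpp40 (0.58, adjusted p = 0.0079).

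**Figure D3:**
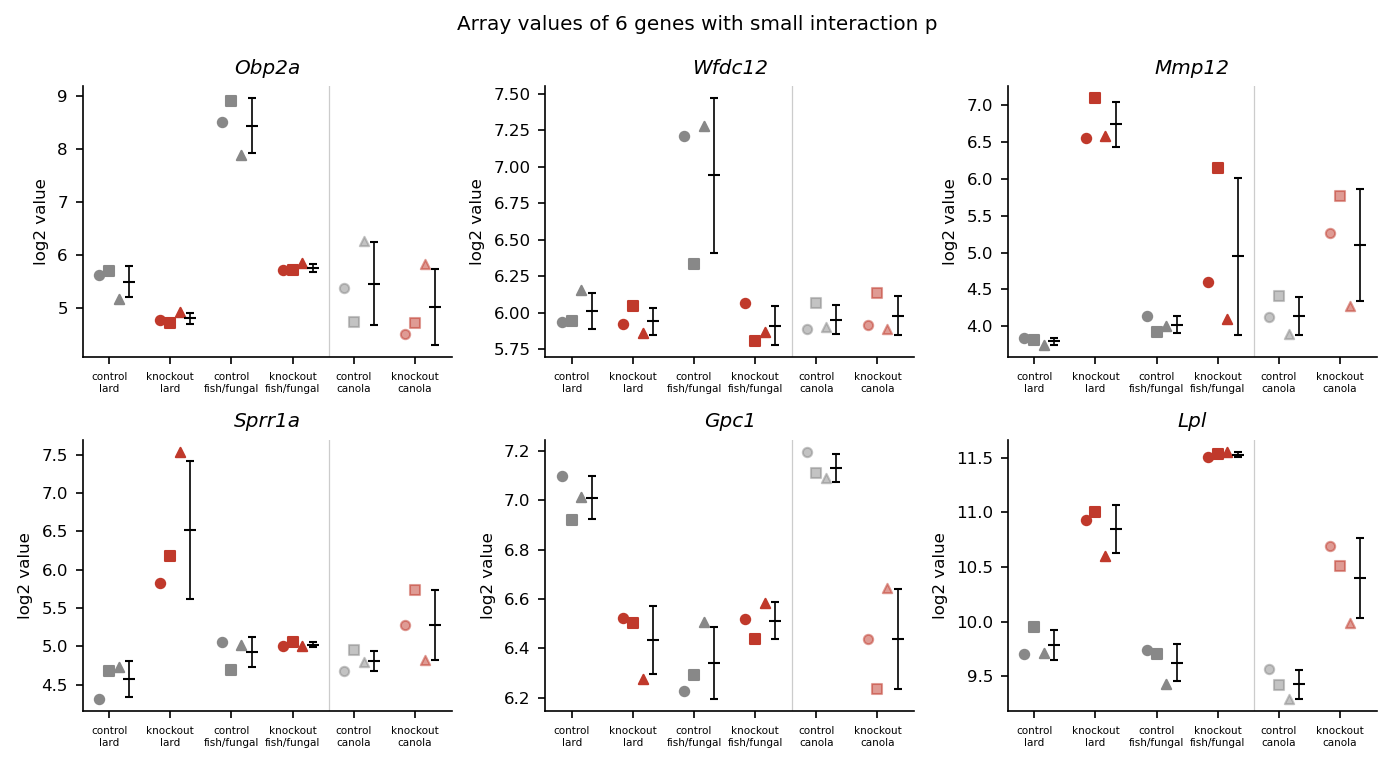
log2 values of 6 genes in every array, controls grey and knockouts red, replicates 1, 2 and 3 as circle, square and triangle, with mean and SD (n = 3) at the right of each group; the paler canola arrays are outside the contrast. Obp2a and Wfdc12 are high in fish/fungal-fed controls, Mmp12 and Sprr1a in lard-fed knockouts; Gpc1 is high in lard-fed controls, and Lpl is highest in fish/fungal-fed knockouts.

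Ccn1, induced by growth factors and mechanical stress, had the smallest p. It read 6.43, 5.99 and 6.27 in lard-fed controls and 6.91, 7.05 and 7.05 in lard-fed knockouts. On fish/fungal oil the order was turned in 2 of 3 controls, which read 6.38, 7.44 and 7.07 against 6.37, 6.44 and 6.50 in knockouts. The knockout effect was 0.78 ± 0.18 on lard (adjusted p = 0.046) and -0.52 ± 0.18 on fish/fungal oil (adjusted p = 0.44). The interaction was -1.30 ± 0.25 (95% interval -1.83 to -0.77, adjusted p = 0.743). Its 3 other probe sets gave -0.76 to -0.42. Without replicate 1 of the fish/fungal-fed controls the interaction was -1.59 with an adjusted p of 0.00064, below the threshold.

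Ccn1 belongs to the immediate-early genes, which are transcribed within minutes of a stimulus and without new protein. A set of 8 such genes was chosen after values were seen: Fos, Jun, Egr1 and Atf3, which encode transcription factors, Nr4a1, an orphan nuclear receptor gene, Btg2, an antiproliferative gene, Socs3, a feedback inhibitor of cytokine signalling, and Ccn1. Fos read 5.02, 11.22 and 6.23 in the fish/fungal-fed controls, and the other 9 arrays of the contrast lay between 5.26 and 6.68. Replicate 2 of the fish/fungal-fed controls was also the highest of the 12 arrays for Jun (9.56), Egr1 (11.34), Nr4a1 (9.52), Btg2 (9.49), Atf3 (7.38) and Ccn1 (7.44), but not for Socs3 (8.38, against 8.81 in replicate 3). Egr1 was also high in replicate 3 of the lard-fed controls (10.72). The interaction of Fos, -2.17 ± 1.36 (95% interval -5.04 to 0.70), was among the 5 largest, and it was -0.31 without replicate 2. Leaving out the same array took Jun from -1.32 to -0.21, Nr4a1 from -1.09 to -0.10, Btg2 from -0.91 to -0.10, Atf3 from -1.10 to -0.48 and Egr1 from -1.01 to 0.29. Ccn1 was at -1.06 without it.

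**Figure D4:**
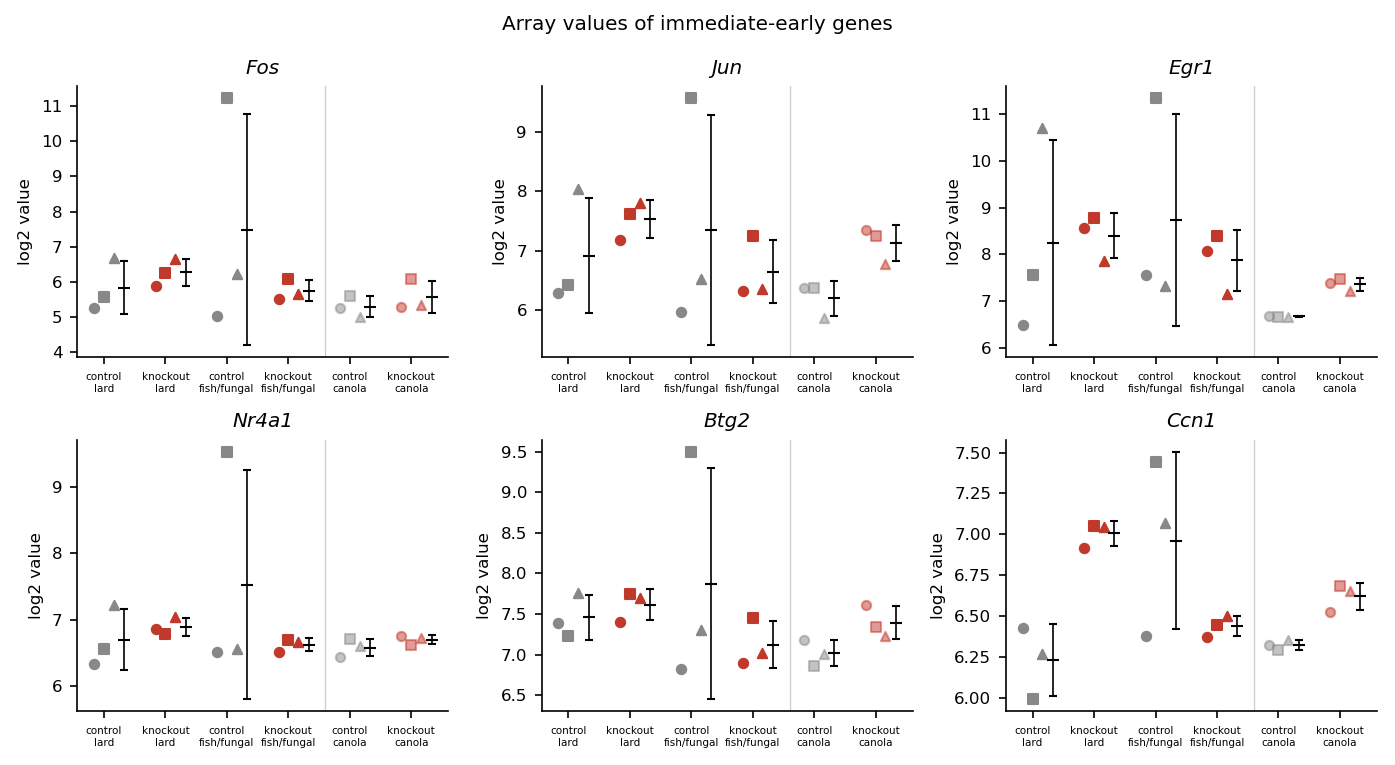
log2 values of 6 immediate-early genes in every array, drawn as for the other genes: controls grey, knockouts red, replicates 1, 2 and 3 as circle, square and triangle, mean and SD (n = 3) beside each group. Replicate 2 of the fish/fungal-fed controls (square) is the highest array of the contrast in all 6 panels, and Egr1 is also high in replicate 3 of the lard-fed controls.

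The promoter windows of these genes were read for the half-site of the cAMP response element, TGACG or CGTCA on the printed strand. RefSeq promoter windows (GRCm38.p6, 250 bases before to 50 after the start) were in the table for 7 of the 8 genes. The half-site was in 5 of the 7 windows, Fos, Nr4a1, Btg2, Atf3 and Ccn1, and in 6837 of all 32851 windows (20.8%). Windows of 4 genes follow, written 5′ to 3′ on the strand of the gene with each half-site in capitals. Fos (chr12:85473640-85473939, + strand) has it from positions -129 and -66 of the start, and Nr4a1 (chr15:101266596-101266895, + strand) from -233, -213, -69 and -40. Btg2 (chr1:134079106-134079405, - strand) has 2 that overlap from -166 and -163 and make up the full palindrome. Ccn1 (chr3:145649936-145650235, - strand) has 1 from -58. The genes were chosen after values were seen, so the shares are no test of enrichment. A match is a description of the letters and not evidence of binding. The cause of the values in replicate 2 of the fish/fungal-fed controls was not tested.
Fos: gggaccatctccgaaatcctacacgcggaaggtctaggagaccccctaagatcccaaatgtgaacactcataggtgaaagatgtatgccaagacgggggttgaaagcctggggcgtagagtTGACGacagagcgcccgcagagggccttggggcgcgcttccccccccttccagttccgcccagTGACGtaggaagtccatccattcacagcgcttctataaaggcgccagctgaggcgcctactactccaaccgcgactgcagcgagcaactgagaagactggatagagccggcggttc
Nr4a1: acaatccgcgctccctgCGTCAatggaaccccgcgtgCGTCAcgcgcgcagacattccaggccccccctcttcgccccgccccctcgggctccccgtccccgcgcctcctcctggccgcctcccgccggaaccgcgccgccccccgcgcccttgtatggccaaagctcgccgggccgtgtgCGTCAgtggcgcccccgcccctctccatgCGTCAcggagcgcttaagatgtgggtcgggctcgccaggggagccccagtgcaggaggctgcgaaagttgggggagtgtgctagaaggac
Btg2: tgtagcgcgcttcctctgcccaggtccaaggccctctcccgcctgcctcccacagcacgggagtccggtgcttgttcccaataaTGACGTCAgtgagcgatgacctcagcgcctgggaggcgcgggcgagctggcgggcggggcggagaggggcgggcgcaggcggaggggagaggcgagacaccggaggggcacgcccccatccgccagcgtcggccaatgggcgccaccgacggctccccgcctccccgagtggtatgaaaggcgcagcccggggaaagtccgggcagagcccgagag
Ccn1: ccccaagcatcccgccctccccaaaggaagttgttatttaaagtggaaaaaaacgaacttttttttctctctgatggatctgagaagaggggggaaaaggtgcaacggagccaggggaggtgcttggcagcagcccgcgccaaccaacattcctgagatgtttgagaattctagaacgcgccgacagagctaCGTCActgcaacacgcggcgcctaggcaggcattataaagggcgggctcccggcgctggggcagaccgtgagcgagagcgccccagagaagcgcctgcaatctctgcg

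Among genes whose knockout effect was higher on fish/fungal oil, Gpc1 had the smallest p. It read 7.10, 6.92 and 7.02 in lard-fed controls, 6.52, 6.50 and 6.27 in lard-fed knockouts, 6.23, 6.29 and 6.51 in fish/fungal-fed controls and 6.52, 6.44 and 6.58 in fish/fungal-fed knockouts. The lard-fed controls lay above the 9 other arrays, as did the canola controls at 7.09 to 7.20. The knockout effect was -0.58 ± 0.11 on lard (adjusted p = 0.016), 0.17 ± 0.11 on fish/fungal oil (adjusted p = 0.77) and -0.69 on canola oil (adjusted p = 0.013). The interaction was 0.75 ± 0.15 (95% interval 0.43 to 1.07, adjusted p = 0.743).

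Lpl, the lipoprotein lipase gene, which is low in adult hepatocytes and releases fatty acids from circulating triglyceride, was higher in knockouts on all diets. It read 9.70, 9.95 and 9.71 in lard-fed controls and 10.94, 11.01 and 10.60 in lard-fed knockouts. The fish/fungal-fed controls read 9.74, 9.70 and 9.43 and knockouts 11.51, 11.53 and 11.55. Knockouts and controls did not overlap, and the fish/fungal-fed knockouts lay above the lard-fed ones. The rise was 1.06 ± 0.15 on lard (adjusted p = 0.0026), 1.90 ± 0.15 on fish/fungal oil (adjusted p = 3e-06) and 0.97 on canola oil (adjusted p = 0.013). The interaction was 0.84 ± 0.22 (95% interval 0.39 to 1.30, adjusted p = 1.00), its other probe set gave 0.95, and it lay between 0.72 and 0.92 when single arrays were left out.

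Elovl2, an elongase of polyunsaturated fatty acids, was lower on fish/fungal oil in both genotypes. It read 12.49, 12.65 and 12.54 in lard-fed controls and 11.28, 11.51 and 11.17 in fish/fungal-fed controls, and 12.16, 12.13 and 12.50 against 11.46, 11.51 and 11.47 in knockouts. The oil effect was -1.24 ± 0.11 in controls (adjusted p = 8.7e-06) and -0.78 ± 0.11 in knockouts (adjusted p = 0.0017). The interaction was 0.46 ± 0.15 (adjusted p = 1.00).

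Fabp5, a fatty acid-binding protein gene, had the largest positive estimate, 1.35 ± 0.59 (95% interval 0.11 to 2.59, adjusted p = 1.00). It read 12.79, 12.25 and 12.11 in lard-fed controls and 12.48, 10.98 and 10.88 in lard-fed knockouts. On fish/fungal oil it read 10.15, 9.18 and 9.21 in controls and 10.62, 10.17 and 8.99 in knockouts. The genotypes overlapped on both diets, and the oil effect in controls was -2.87 (adjusted p = 0.0016) against -1.52 in knockouts (adjusted p = 0.15). Aacs, the acetoacetyl-CoA synthetase gene of cytosolic lipid synthesis, had an interaction of 0.87, from knockout effects of -0.87 on lard and 0.00 on fish/fungal oil. Cyp8b1, the sterol 12alpha-hydroxylase of bile acid synthesis, had 0.83, and the sulfotransferase gene Gal3st1 had 0.85.

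Cyp2b9, a P450 gene that is female-biased in mouse liver, had the largest interaction of all, -3.29 ± 1.25 (95% interval -5.92 to -0.66, adjusted p = 1.00). Its arrays varied widely within groups. It read 5.34, 4.54 and 4.63 in lard-fed controls and 5.70, 5.57 and 9.00 in lard-fed knockouts, and 8.76, 7.13 and 6.70 in fish/fungal-fed controls and 5.73, 7.94 and 4.80 in fish/fungal-fed knockouts. Replicate 3 of the lard-fed knockouts lay 3 log2 units above the other 2, and without it the interaction was -2.17.

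The other genes named by p had estimates between 0.37 and 0.83 in size, and in several the probe sets of the gene differed. Grasp had -0.54 from its brightest probe set, while its 2 other probe sets gave 0.17 and 0.30. Acpp had 0.83 against -0.11 and -0.02 from its others, Casz1 had 0.49 against -0.04 to 0.04 from 3 others, and Pbx4 had 0.66 against 0.09. F10, which encodes coagulation factor X, had 0.37, and its 2 other probe sets gave 0.34 and 0.43. Mbd3, of the NuRD chromatin complex, had 0.50, Inafm1 had 0.41 and A430033K04Rik had 0.39. Of these 8 genes, Mbd3 had a single probe set, and F10 was the one whose other probe sets lay close to its estimate.

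Over the 305 genes at an unadjusted p under 0.05, the lard-fed knockouts stood apart upward in 55 (18%), against 7.07% of all genes tested. The lard-fed controls stood apart downward in 31 (10.2%, against 5.99%), and no single group stood apart in 139 (45.6%, against 50.6%). The fish/fungal-fed controls stood apart upward in 17 (5.57%, against 7.51%) and the fish/fungal-fed knockouts upward in 12 (3.93%, against 4.47%). The knockout effect on canola oil lay between those on lard and on fish/fungal oil in 259 of the 305 (84.9%), against 32.9% of all genes tested. It was nearer that on fish/fungal oil in 169 (55.4%), against 53.1% of all genes. The genes were chosen by the same arrays, so these shares are a description.

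Lists of related genes were described by counts and medians, beside a median interaction of -0.01 over all 12578 genes. Of all these genes 6642 had an interaction below 0. None of the 41 lists held a gene past the threshold, and 20 list medians were below 0 and 21 above. Of the 38 lists with at least 5 tested members, 23 had a median that changed sign when 1 array was left out. CAR and PXR targets had a median interaction of -0.16 (28 tested, 19 below 0). Their knockout effect passed upward for 17 of 28 on lard and 8 of 28 on fish/fungal oil, with medians of 0.74 and 0.58. Over all genes tested it passed upward for 113 (0.898%) on lard and 32 (0.254%) on fish/fungal oil. Members at an unadjusted p under 0.05 were Cyp2b9, Abcb1a and Cyp3a25, a P450 that rose on both diets by 0.65 (adjusted p = 0.00018) and 0.36 (adjusted p = 0.042). Cyp3a11, the main PXR-induced P450, rose by 0.48 (adjusted p = 0.00094) and 0.34 (adjusted p = 0.019) and had an interaction of -0.14.

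NRF2 targets, which serve antioxidant and conjugation reactions, had a median of -0.23, with 19 of 21 below 0. The 3 members at an unadjusted p under 0.05 were the aldehyde oxidase gene Aox1 (-0.82), the haem oxygenase gene Hmox1 (-0.63) and the microsomal epoxide hydrolase gene Ephx1 (-0.44). Ephx1 rose by 0.71 on lard (adjusted p = 0.0099) and stood at 0.27 on fish/fungal oil (adjusted p = 0.63). In both Ephx1 and Aox1 the lard-fed controls stood apart downward. The oil effect on Ephx1 in controls was 0.72 (adjusted p = 0.0061). Its mean was highest in the fish/fungal-fed knockouts, at 12.61 against 12.33 in the lard-fed knockouts. The list median was -0.09 without replicate 3 of the fish/fungal-fed knockouts and -0.42 without replicate 2. Conjugation enzymes had a median of -0.09 (31 of 39 below 0) and the P450s of families 1 to 3 a median of -0.01.

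Many genes of fat synthesis fell on fish/fungal oil against lard, in both genotypes. The oil effect passed downward for 8 of 25 fatty acid synthesis genes in controls and 4 in knockouts. It passed for 13 and 9 of 20 in cholesterol synthesis and uptake, and for 5 and 4 of 13 in desaturation and elongation. Over all genes tested it passed downward for 0.620% in controls and 0.421% in knockouts. The median interactions of these lists were 0.19, 0.14 and 0.09. Fasn, the fatty acid synthase gene, read 11.40, 11.74 and 11.10 in lard-fed controls, 11.64, 9.55 and 11.57 in lard-fed knockouts, 9.11, 8.14 and 8.27 in fish/fungal-fed controls and 8.06, 9.26 and 8.00 in fish/fungal-fed knockouts. Replicate 2 of the lard-fed knockouts was the low one. Without it the interaction of Fasn went from 0.43 to -0.26, the list median of fatty acid synthesis to -0.12 and that of cholesterol synthesis to -0.06. Fads2, the delta-6 desaturase gene, fell on fish/fungal oil, with an effect of -2.49 in controls (adjusted p = 9.7e-05) and -2.15 in knockouts (adjusted p = 0.0010), with an interaction of 0.34 ± 0.38. Scd1, the stearoyl-CoA desaturase gene, fell by 0.92 in controls (adjusted p = 0.0195) and stood at -0.55 in knockouts (adjusted p = 0.29), with an interaction of 0.36 ± 0.25 (1.05 from its other probe set). The difference between the genotypes did not pass for any of the 3 genes.

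**Figure D5:**
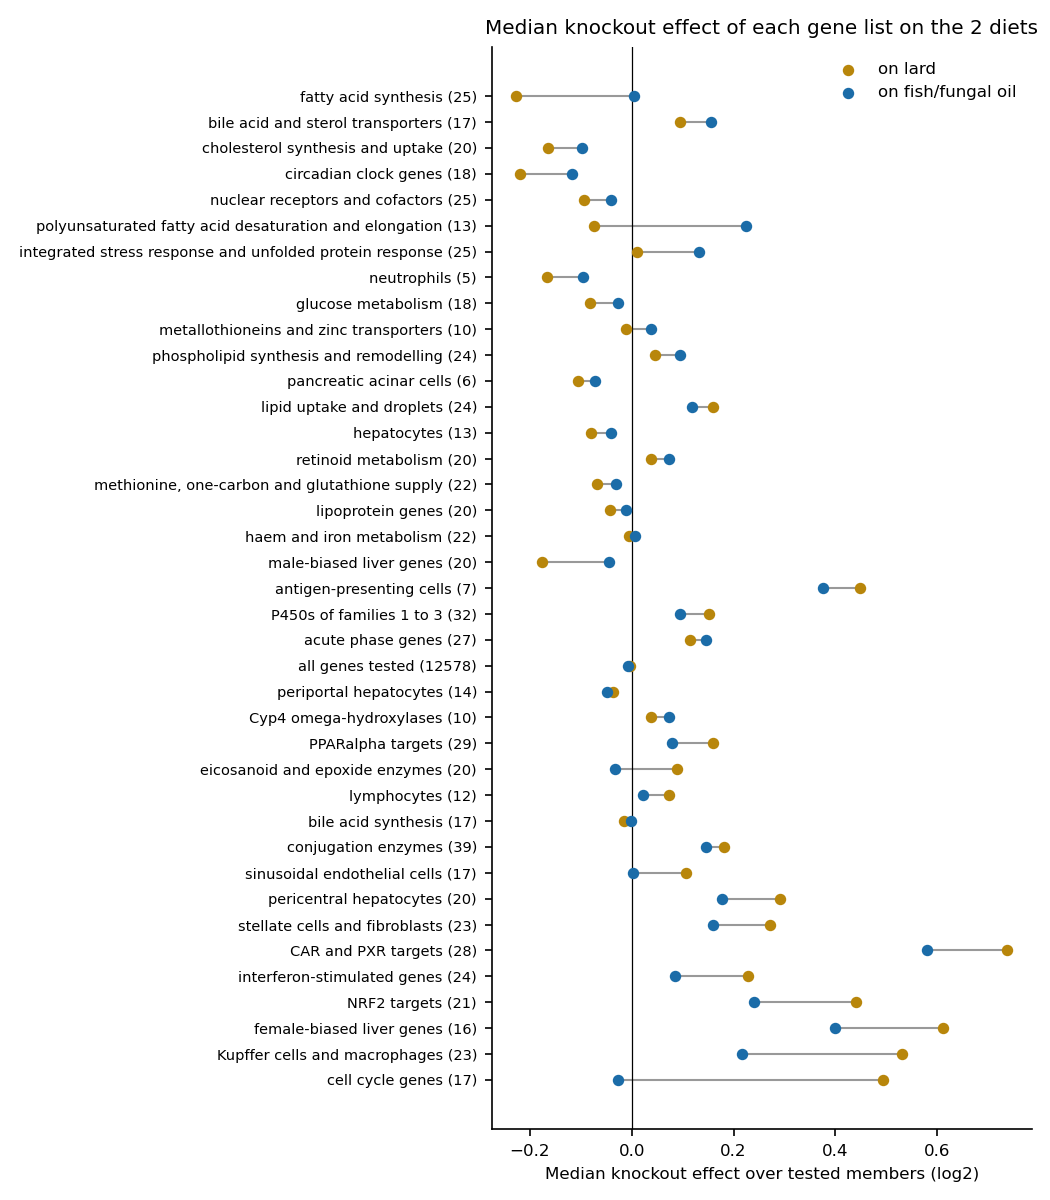
Median knockout effect (log2) over the tested members of each gene list on lard (gold) and on fish/fungal oil (blue), with the number of tested members in brackets, ordered by the median interaction; lists with fewer than 5 tested members are left out. The largest gaps are those of cell cycle genes, of Kupffer cells and macrophages and of desaturation and elongation, and CAR and PXR targets are high on both diets.

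Macrophage markers had a median interaction of -0.32, and 21 of 23 were below 0. Their mean level per array ran from 7.78 to 8.08 in lard-fed controls, from 8.50 to 8.60 in lard-fed knockouts, from 8.10 to 8.19 in fish/fungal-fed controls and from 7.99 to 8.60 in fish/fungal-fed knockouts. The genotypes did not overlap on lard and did on fish/fungal oil. In bulk liver RNA, fewer cells of a type and less RNA per cell cannot be told apart. On lard 7 of the 23 passed upward, against 0.898% of all genes tested. On fish/fungal oil 0 of the 23 passed, which is near the 0.254% of all genes that passed upward there. The median knockout effects were 0.53 and 0.22. Members at an unadjusted p under 0.05 were Mmp12, the galectin gene Lgals3 (-0.88), the lysozyme gene Lyz2 (-0.65) and the chemokine gene Ccl2 (-0.52), and the pan-macrophage marker Adgre1 stood at -0.39 and the Kupffer cell marker Clec4f at -0.30.

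Lgals3 read 7.76, 7.72 and 7.72 in lard-fed controls and 8.95, 9.20 and 9.15 in lard-fed knockouts. Fish/fungal-fed arrays read 8.29, 7.90 and 8.25 in controls and 9.01, 9.14 and 7.73 in knockouts. Replicate 3 of the fish/fungal-fed knockouts lay below the controls, and the other 2 lay near the lard-fed knockouts. Without that array the interaction of Lgals3 was -0.44 and the median of the macrophage list was -0.14. Mmp12 without it was at -1.59. Cd14, the lipopolysaccharide co-receptor gene, chosen after values were seen, had an interaction of -0.99. Its effects were 1.06 on lard (adjusted p = 0.015) and 0.07 on fish/fungal oil (adjusted p = 0.97), and the lard-fed knockouts stood apart upward. Clec7a, the beta-glucan receptor gene, had -0.97 from 1.41 (adjusted p = 0.011) and 0.43 (adjusted p = 0.74). In Clec7a the lard-fed controls stood apart downward, at a mean of 8.10. The other means were 9.51 in lard-fed knockouts, 8.94 in fish/fungal-fed controls and 9.38 in fish/fungal-fed knockouts.

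Cell cycle genes had the lowest list median, -0.43, with 13 of 17 below 0. Their median knockout effect was 0.49 on lard and -0.03 on fish/fungal oil. At an unadjusted p under 0.05 were Cdt1, a replication licensing factor gene (-0.67), the helicase subunit genes Mcm6 (-0.68) and Mcm2 (-0.56), the mitotic kinase gene Cdk1 (-0.70) and the ribonucleotide reductase gene Rrm2 (-0.78). Cdt1 read 6.77, 7.18 and 6.71 in lard-fed controls and 7.63, 7.64 and 7.72 in lard-fed knockouts, and 7.19, 7.41 and 7.43 in fish/fungal-fed controls and 7.36, 7.66 and 7.31 in fish/fungal-fed knockouts. Cdt1 rose on lard (0.77, adjusted p = 0.012) and the genotypes overlapped on fish/fungal oil. The list median was -0.28 without replicate 3 of the fish/fungal-fed knockouts. The mean level of macrophage markers had a median of 8.54 in lard-fed knockouts and 8.53 in fish/fungal-fed knockouts, where the lowest array was at 7.99. In controls the medians were 7.93 on lard and 8.13 on fish/fungal oil. The part of macrophages in the cell cycle values was not tested.

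Interferon-stimulated genes had a median of -0.16 (22 of 24 below 0), with the GTPase gene Iigp1 at -0.27. Circadian clock genes had a median of 0.13 with 17 of 18 at or above 0, Clock being the exception at -0.36, and 0 members at an unadjusted p under 0.05. The median was 0.01 without replicate 3 of the fish/fungal-fed knockouts. Female-biased liver genes had a median of -0.25, which was 0.16 without replicate 3 of the lard-fed knockouts, the array that was high in Cyp2b9. The other 29 lists had medians between -0.11 and 0.17, and 13 of them held at least 1 gene at an unadjusted p under 0.05. Of all genes tested 305 (2.42%) had such a p, and the 13 is a count of lists, not of genes. Among the list members with such a p were Ighm, the immunoglobulin heavy chain gene (0.82), in the lymphocyte list, Fabp4, a fatty acid-binding protein gene of adipocytes and macrophages (-0.62), and Esr1, the estrogen receptor alpha gene (0.50), in the nuclear receptor list. None of the 3 passed the adjusted threshold. Other probe sets gave -0.26 to 0.68 for Ighm, -0.03 and 0.05 for Esr1 and -0.55 to 0.20 for Fabp4.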

How the data were processed

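Expression was measured in livers of 6 groups on Affymetrix mouse genome arrays, 3 arrays of pooled RNA each. The authors summarised the probes by RMA (version not given), per the submitters' processing notes. That the deposited unit is log2 was read from the range of 2.41 to 14.9. No value was missing, 0 pairs of arrays were identical, and the labels say of replicates only that each is a pool of 3 mice, so p-values measure the spread between pools.

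The platform table gave 1 gene symbol for 34945 of 45101 probe sets, several for 932 and none for 9160, and 64 are controls of the array. Symbols of 34741 probe sets were found in RefSeq's table. A gene was read from its probe set with the highest mean over the 18 arrays (9010 genes had more than 1) and entered the test where at least 3 of the 18 arrays had it above their median. limma 3.58.1 (R 4.3.3) was run on 6 group means over 18 arrays with an intensity trend. Tests were two-sided, with Benjamini-Hochberg adjustment over all 12578 genes and a threshold of 0.05. Errors are standard errors and intervals are 95% intervals of that fit. The scripts were tested on simulated data.

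The members and the 41 gene lists (28 of pathways, 13 of cell types) were chosen with earlier results of these data known. The rule for naming genes took the 10 smallest interaction p of each sign, the 5 largest interactions of each sign, and from each list the member with the smallest p; those taken only from a list are given in part. Genes past the threshold on canola oil were added. Cyp3a11, Nebl, Fasn, Scd1, Fads2, Clec7a, Cd14, Lgals3 and the immediate-early genes were chosen after values were seen. So were the list members quoted with an interaction and no arrays. The alternatives were repeated quantile normalization, centring, 2 other filters, 2 other choices of probe set, no intensity trend, array weights, the 12 arrays alone, the replicate number as a block, and each array of the contrast left out in turn. Leaving out knockout canola replicate 3, and following list medians and the count at an unadjusted p, were added after seeing the data.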

Additional observations from a re-analysis of the deposited data

How the results depend on the processing

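The interaction called 0 genes higher and 0 lower under the 10 alternatives to the processing, the replicate block among them. When each of the 12 arrays was left out, 0 genes were called higher and 0 to 1 lower: Ccn1 without control fish/fungal replicate 1 and Wfdc12 without control fish/fungal replicate 2. At an unadjusted p under 0.05 the count of 305 ran from 241 to 487 without single arrays, and was 538 with no filter on dim probe sets and 109 with the filter at the 75th percentile. The replicate numbers of the labels did not pair the arrays: correlations of same-numbered arrays' deviations ran from -0.40 to 0.46, and 6 of 18 arrays were closest to their own number. With the replicate block 300 genes had an unadjusted p under 0.05.

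The knockout called from 70 genes on lard, with the filter at the 75th percentile, to 182, with array weights. On fish/fungal oil it called from 24, when a gene's probe sets were averaged, to 43, without knockout canola replicate 3. Fish/fungal oil against lard called 66 to 122 genes in controls and 30 to 73 in knockouts, where the lower count came with array weights. On canola oil 6 genes were called when a gene's probe sets were averaged, 28 without knockout canola replicate 3 and 90 with array weights.

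Of 77 genes followed, 70 kept the sign of their interaction under every one of the 23 alternatives that gave a value. Without probe sets prone to cross-hybridization Grasp was at 0.30 and Uroc1 at 0.052, and with array weights Cyp2c55 was at -0.054. Without single arrays Cyp2c55 ran from -0.13 to 0.38, Ces2a from -0.192 to 0.072, Golm2 from -0.004 to 0.26, Fasn from -0.26 to 0.79 and Egr1 from -2.25 to 0.29. Of 38 list medians 23 changed sign when an array of the contrast was left out. In 15 of them, with medians between -0.044 and 0.055 over all arrays, each such shift was smaller than the SD of the list's mean between arrays. In 8 it was larger: fatty acid synthesis (-0.12 to 0.41), cholesterol synthesis and uptake (-0.057 to 0.20), female-biased genes (-0.35 to 0.16), haem and iron metabolism (-0.063 to 0.034), bile acid and sterol transporters (-0.022 to 0.213), bile acid synthesis (-0.058 to 0.039), nuclear receptors (-0.003 to 0.11) and sinusoidal endothelial cells (-0.18 to 0.04). The cause of these changes was not tested.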
